A study of Drosophila melanogaster with 12 samples.

Results

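Insulin signalling was followed here through 9 genes, Ilp2, Ilp3, Ilp5, Ilp6, ImpL2, InR, chico, foxo and Thor, among the 17895 genes counted in fly heads. The genes were taken by their FlyBase symbols. Every one of the 9 was found in the table and passed the filter on low counts. In each library 1 head of a 21-day-old female Drosophila melanogaster was sequenced, and the labels describe the females as "verging". There were 4 groups of 3 libraries: SIRT6 KO flies fed the inhibitor, SIRT6 KO flies fed DMSO, w1118 flies fed the inhibitor and w1118 flies fed DMSO. The inhibitor was 680C91, a blocker of the tryptophan-degrading enzyme TDO2, given at 100 µM in the yeast extract of a cornmeal diet from eclosion, and DMSO is its solvent. The labels give w1118, a white-eyed laboratory strain, as the comparison strain. They do not name the KO allele or its genetic background, so strain and loss of SIRT6 cannot be told apart. Each library is a separate fly, and the p-values measure the spread between such heads.

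Insulin-like peptides of the fly bind a single insulin receptor at the cell surface, and the receptor acts through adaptor proteins and the kinase Akt. Active Akt keeps the transcription factor foxo out of the nucleus, while low insulin lets foxo switch on genes such as Thor and InR itself. In the adult head, Ilp2, Ilp3 and Ilp5 are known as products of the insulin-producing neurosecretory cells of the brain, and Ilp6 as a product of the fat body, the fly tissue that stands for liver and adipose tissue. ImpL2 is a secreted protein that binds insulin-like peptides and restrains their action.

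Libraries held 24633705 to 44545859 estimated counts. The Sirt6 transcript was not lower in the libraries labelled KO (averaged log2 difference -0.01, SE 0.13, edgeR quasi-likelihood adjusted p = 0.971), so every direction below refers to the labels. Replicate 2 of w1118 with inhibitor and replicate 2 of w1118 with DMSO stood apart from the other libraries. Their 8 fat body genes, yolk protein genes among them, summed to 25809 and 3793 CPM (counts relative to the TMM-scaled library size), against 104738 to 154264 CPM in the 6 KO libraries and 225463 to 298104 CPM in the other 4 w1118 libraries. Yolk protein genes alone held 1.87% and 0.417% of the total counts in these libraries. They held 9.57% to 13.1% in the KO libraries and 18.2% to 21.2% in the other 4 w1118 libraries. The fat body sum thus mostly follows yolk protein transcripts and does not measure the amount of fat body. Markers of neurons, photoreceptors, glia, muscle, haemocytes, corpora cardiaca and neurosecretory cells were above 0 in every library. The averaged genotype test called 11.1% of all genes tested. In it nSyb of 5 neuronal markers, Arr2 of 4 photoreceptor markers and bt of 4 muscle markers were higher in KO heads. He of 5 haemocyte markers and alrm of 6 glial markers were lower, 0 of 8 fat body markers passed, and the part of these shifts in the results below was not tested. Without both w1118 replicates 2, the same test called 29.1% of all genes. Higher in KO heads were then 5 of 5 neuronal, 2 of 4 photoreceptor, 1 of 4 muscle and 1 of 5 haemocyte markers. Lower were 5 of 8 fat body, 2 of 6 glial, 2 of 5 haemocyte and 1 of 2 corpora cardiaca markers. A head holds brain, eye, fat body and muscle together, and in such bulk samples fewer cells of a type and less RNA per cell cannot be told apart.

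The KO heads differed from w1118 heads in Ilp2, Ilp5 and ImpL2. Averaged over treatments, the KO libraries had lower levels of Ilp2 (2.27-fold), Ilp5 (2.00-fold) and ImpL2 (4.63-fold), while the receptor, its substrate, foxo and Thor did not pass the test. That made 3 of the 9 genes lower and 0 higher, where 11.1% of the 14155 genes tested were called, 5.78% as lower and 5.33% as higher. With DMSO alone 2 of 9 were lower, Ilp2 and ImpL2, against 4.1% of all genes called, 2.05% as lower and 2.06% as higher. With inhibitor alone the same 2 genes were lower, against 3.41% of all genes called, 1.46% as lower and 1.95% as higher. The median log2 difference of the 9 genes was -0.25 in the averaged comparison, beside -0.07 over all genes tested. A call is an adjusted p under 0.05, adjusted over all 14155 genes. Of all genes called in the average 48.0% were higher in KO, and this split moved to 58.8% with median-of-ratios scaling and to 59.0% with yolk protein genes taken out before scaling. Under both scalings Ilp2 and ImpL2 stayed called as lower, and Ilp5 lost its call.

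**Figure D1:**
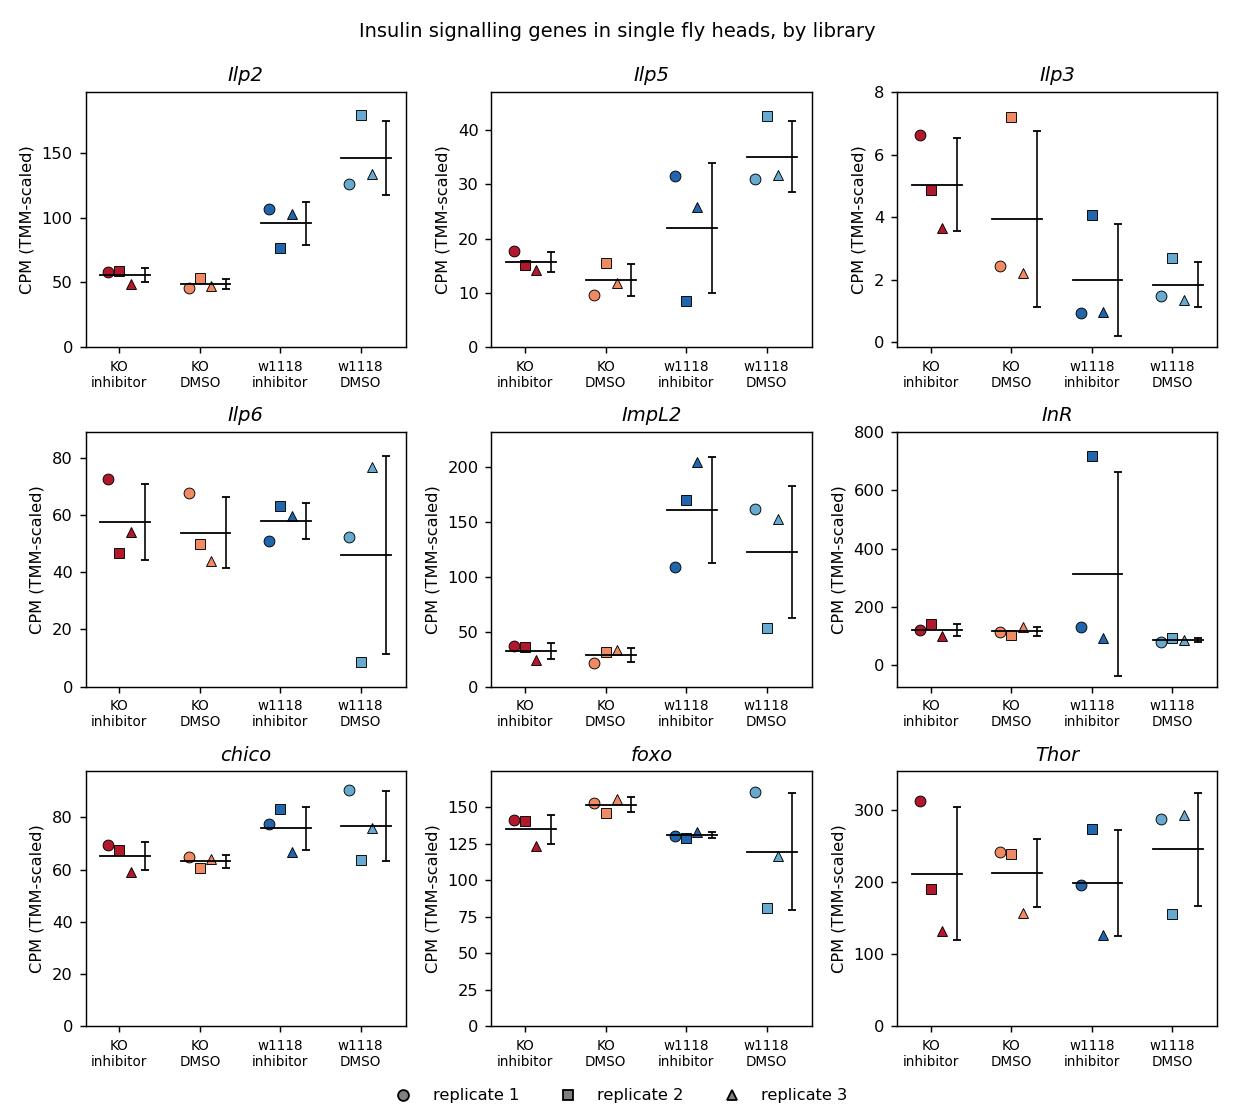
Level of each of the 9 genes in CPM on linear axes, 1 panel a gene, in SIRT6 KO with inhibitor, SIRT6 KO with DMSO, w1118 with inhibitor and w1118 with DMSO; symbols are libraries shaped by replicate number, horizontal lines are group means and the bars beside them are ± 1 SD (n = 3). The KO libraries lie below the w1118 libraries in the panels of Ilp2 and ImpL2, and 1 w1118 library with inhibitor stands at 718 CPM in the InR panel.

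Ilp2, the most abundant of the brain peptides, was lower in KO heads under both treatments. The gene (FBgn0036046) lies on 3L from 9799698 to 9800440, plus strand, of BDGP6.54, within the span of CG32052 and clear of its exons. It had 45.9, 53.4 and 47.1 CPM in replicates 1, 2 and 3 of KO with DMSO, against 126, 179 and 134 CPM in w1118 with DMSO. With inhibitor it had 58.4, 59.0 and 49.1 CPM in KO heads, against 107, 76.9 and 103 CPM in w1118 heads. Every KO library lay below every w1118 library, and the 2 treatments overlapped within KO. In the averaged comparison 2 of the 9 genes, Ilp2 and ImpL2, had no overlap between genotypes, both below, against 7.76% of all genes tested, of which 3.97% were below and 3.79% above.

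The difference in Ilp2 was 3.00-fold with DMSO (log2 -1.58, SE 0.17, 95% interval -1.96 to -1.21, edgeR quasi-likelihood adjusted p = 0.000783). With inhibitor it was 1.72-fold (log2 -0.79, SE 0.17, 95% interval -1.16 to -0.41, adjusted p = 0.0321 by the same test). Averaged over treatments the log2 difference was -1.18 (SE 0.12, 95% interval -1.45 to -0.92, edgeR adjusted p = 0.000199). Leaving out both w1118 replicates 2 gave -1.33 with DMSO, -0.86 with inhibitor and -1.09 averaged. The call with inhibitor was lost on leaving out any 1 of the 6 KO libraries, replicate 3 of w1118 with DMSO, or replicate 1 or 3 of w1118 with inhibitor, with adjusted p-values of up to 0.158, and the calls with DMSO and in the average held throughout.

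Other genes of neurosecretory cells were measured beside Ilp2, and their part in its difference was not tested. The 6 neurosecretory genes Dsk, amon, svr, Phm, 7B2 and dimm summed to 721 to 770 CPM in KO libraries, against 663 to 862 CPM in w1118 libraries, and 0 of the 6 passed the averaged genotype test with all libraries. Leaving out both w1118 replicates 2, 3 of the 6 passed as higher in KO heads (7B2, amon and Dsk) and 1 as lower (Phm). Of all genes 11.1% were called with all libraries and 29.1% without these 2. Dsk, a sulfakinin peptide that the insulin-producing cells also make, averaged 27.9 ± 4.13 CPM in KO heads and 23.8 ± 12.0 CPM in w1118 heads (SD, n = 6 each). Dsk is expressed in other brain neurons too, so its level does not count insulin-producing cells.

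Ilp5 pointed the same way as Ilp2 with a wider spread. The gene (FBgn0044048) lies on 3L from 9823349 to 9823897, minus strand, within the span of CG43897. It had 9.64, 15.5 and 11.8 CPM in KO with DMSO, against 30.9, 42.6 and 31.7 CPM in w1118 with DMSO. With inhibitor it had 17.7, 15.1 and 14.2 CPM in KO heads, against 31.5, 8.45 and 25.8 CPM in w1118 heads. Replicate 2 of w1118 with inhibitor was the lowest of all 12 libraries, and apart from it every w1118 library lay above every KO library.

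Averaged over treatments Ilp5 differed by -0.998 in log2 units (SE 0.28, 95% interval -1.61 to -0.38, edgeR adjusted p = 0.0446). By edgeR's test neither treatment alone passed. The DMSO groups differed by -1.51 (SE 0.39, 95% interval -2.39 to -0.63, adjusted p = 0.0639) and the inhibitor groups by -0.49 (SE 0.39, 95% interval -1.35 to 0.38, adjusted p = 0.561, edgeR). With both w1118 replicates 2 left out the log2 differences were -1.26, -0.81 and -1.03 with DMSO, with inhibitor and averaged, and each passed, at adjusted p-values of 0.00407, 0.0283 and 0.000957. The averaged call with all libraries was lost in 15 of 20 alternatives, among them leaving out any library except replicate 2 of w1118 with inhibitor, with adjusted p-values of up to 0.120.

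Ilp3, the least abundant brain peptide, differed in the opposite direction and did not pass the main edgeR test with all libraries. The gene (FBgn0044050) lies on 3L from 9801298 to 9802120, minus strand, within the span of CG32052. It had 6.62, 4.86 and 3.66 CPM in KO with inhibitor and 2.42, 7.20 and 2.21 CPM in KO with DMSO. In w1118 it had 0.935, 4.06 and 0.956 CPM with inhibitor and 1.48, 2.68 and 1.35 CPM with DMSO. The genotypes overlapped, and the highest w1118 library under each treatment was replicate 2. A library held 31 to 286 counts of it.

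The averaged log2 difference in Ilp3 was 1.22 (SE 0.46, 95% interval 0.20 to 2.24, edgeR adjusted p = 0.121). It was 1.09 (SE 0.65) with DMSO and 1.35 (SE 0.65) with inhibitor, at edgeR adjusted p-values of 0.415 and 0.299. With all libraries and a replicate block the averaged difference was 1.33 and passed (edgeR adjusted p = 0.0323), and it passed in 5 of 20 alternatives. Without both w1118 replicates 2 the averaged difference was 2.02 (SE 0.39, edgeR adjusted p = 0.00550), and Ilp3 then passed as higher in KO heads. The difference with inhibitor was then 2.48 (adjusted p = 0.0247, edgeR).

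The makeup of the brain peptides also varied between libraries. Per kilobase of exon, Ilp2 made up 65.5% to 74.5% of the summed level of the 3 genes in KO libraries, against 70.4% to 83.3% in w1118 libraries. Ilp3 made up 6.63%, 5.13% and 4.52% in KO with inhibitor and 3.51%, 7.88% and 2.99% in KO with DMSO. In w1118 it made up 0.550%, 3.92% and 0.608% with inhibitor and 0.774%, 0.989% and 0.674% with DMSO. Apart from replicate 2 of w1118 with inhibitor, every w1118 share of Ilp3 was below 1% and below every KO share. The summed level of the 3 peptides was 70.6 ± 10.1 CPM in KO heads and 151 ± 44.9 CPM in w1118 heads (SD, n = 6 each). No test was run on the shares, which derive from the levels already tested.

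**Figure D2:**
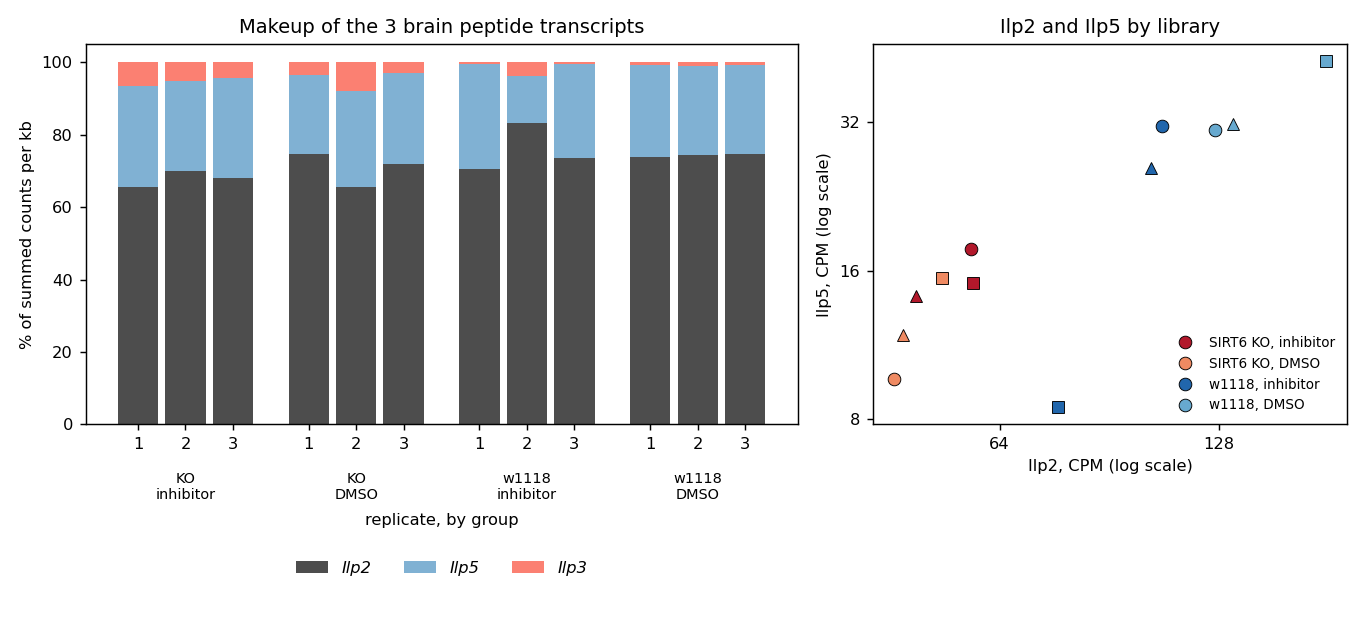
Left, stacked bars of the percent of the summed level per kilobase that Ilp2, Ilp5 and Ilp3 made up in each library, with the KO groups left of the w1118 groups; right, Ilp5 against Ilp2 in CPM on log axes, 1 symbol a library, coloured by group and shaped by replicate number (circle 1, square 2, triangle 3). The share of Ilp3 in the level per kilobase reached 7.88% in a KO library and stayed under 1% in 5 of the 6 w1118 libraries.

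The 3 brain peptide genes are neighbours in the genome. With Ilp1 and Ilp4 they lie within 25.5 kb of 3L, from 9798420 to 9823897, and the gaps between neighbouring genes in the order Ilp1, Ilp2, Ilp3, Ilp4 and Ilp5 are 647, 857, 1278 and 19085 bp. Ilp1 stood at 0.195 to 0.940 CPM and Ilp4 at 0.133 to 0.327 CPM in the 12 libraries. Across the 12 libraries, Ilp2 and Ilp5 moved together in log2 CPM (Pearson r = 0.86, permutation p = 0.00078, adjusted p = 0.0281 over 36 pairs of the 9 genes). The shuffle ran over all 12 libraries regardless of group, so the lower levels of both genes in KO heads enter this p-value. Spearman's rho was 0.83 (permutation p = 0.00153, adjusted p = 0.0551). The r was 0.76 without the 2 libraries farthest from the median of Ilp2, 0.86 within KO and 0.87 within w1118. On deviations from group means it was 0.83 (exact permutation p = 0.00154, adjusted p = 0.0556), so the pair passed the threshold only on the pooled Pearson values. Within w1118, replicate 2 with DMSO was the highest and replicate 2 with inhibitor the lowest library in both genes. No other pair of the 36 passed, and Ilp2 with Ilp3 gave r = 0.83 within KO and -0.11 within w1118.

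Ilp6, an IGF-like peptide of the fat body that is known to rise when larvae stop feeding, showed no call. The gene (FBgn0044047) lies on X from 2331493 to 2334658, minus strand, within the span of Raf. It had 72.5, 46.7 and 54.0 CPM in KO with inhibitor and 67.7, 50.03 and 44.0 CPM in KO with DMSO. In w1118 it had 51.0, 63.3 and 59.8 CPM with inhibitor and 52.3, 8.77 and 77.0 CPM with DMSO. The groups overlapped, and replicate 2 of w1118 with DMSO, the library with the lowest fat body sum, was far below the rest. The averaged log2 difference was 0.11 (SE 0.40, 95% interval -0.77 to 0.99, edgeR adjusted p = 0.888), and it was -0.03 without both w1118 replicates 2.

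ImpL2 had the largest genotype difference of the 9 genes. The gene (FBgn0001257) lies on 3L from 4224006 to 4236147, minus strand. It had 37.0, 35.8 and 24.4 CPM in KO with inhibitor, against 109, 170.4 and 204 CPM in w1118 with inhibitor. With DMSO it had 21.1, 31.3 and 33.1 CPM in KO heads, against 162, 53.8 and 152 CPM in w1118 heads. All 6 KO libraries lay below all 6 w1118 libraries, and replicate 2 of w1118 with DMSO was the closest to them.

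ImpL2 differed by -2.21 in log2 units in the average (SE 0.29, 95% interval -2.85 to -1.57, edgeR adjusted p = 0.00101). The KO groups stood at -2.11 against w1118 with DMSO (SE 0.41, 95% interval -3.01 to -1.20, edgeR adjusted p = 0.0201). The same comparison with inhibitor gave -2.31 (SE 0.41, 95% interval -3.23 to -1.40, edgeR adjusted p = 0.0130). All 3 calls held when both w1118 replicates 2 were left out, at log2 differences of -2.38, -2.21 and -2.29 with DMSO, with inhibitor and averaged. The call with DMSO was lost without any 1 KO library with DMSO, or without replicate 1 or 3 of w1118 with DMSO, at adjusted p-values of up to 0.0846, and the call with inhibitor without any 1 KO library with inhibitor, at up to 0.0697.

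Fat body markers varied between the genotypes and within w1118 beside ImpL2, and their part in the result was not tested. The 8 markers, whose CPM are mostly yolk protein transcripts, summed to 104738 to 154264 CPM in KO libraries. Their sum was higher in 4 w1118 libraries and lower in the other 2. In those 2 libraries, with fat body sums of 25809 and 3793 CPM, ImpL2 was at 170.4 and 53.8 CPM, above every KO library. The 53.8 CPM, in the library with the lowest fat body sum, was the lowest ImpL2 level in w1118. An exon of ImpL2 overlaps an exon of CG46460 on the same strand, which had 0 to 629 counts a library, so the split of reads between these genes is uncertain.

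**Figure D3:**
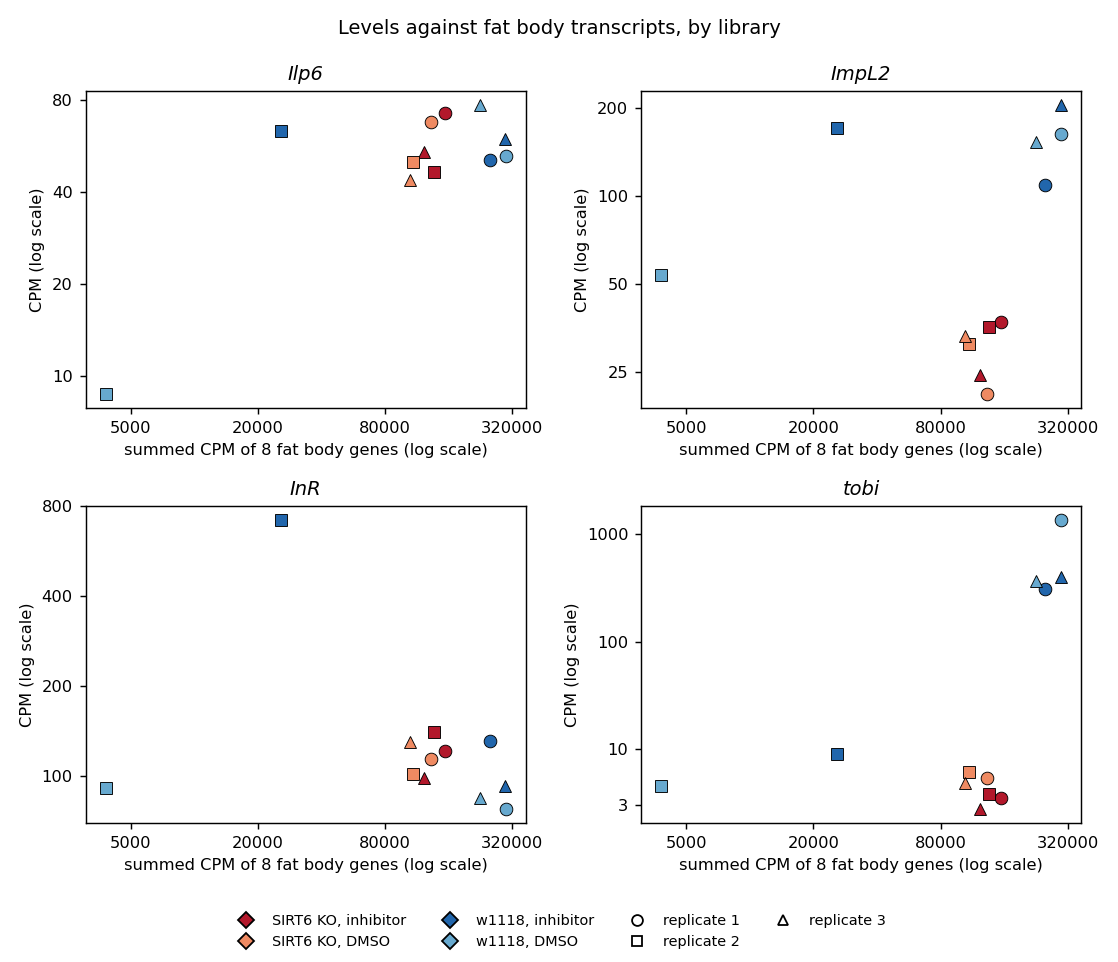
Level of Ilp6, ImpL2, InR and tobi in CPM against the summed CPM of 8 fat body genes, both on log axes, with 1 symbol a library, coloured by group and shaped by replicate number. In the w1118 libraries of 25809 and 3793 CPM, ImpL2 is above every KO library, and at its lowest w1118 value in the second. The gene tobi in those libraries is within 3 CPM of the KO range. The part of fat body transcripts in either was not tested, and the sum of the 8 genes is mostly yolk protein transcripts.

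InR, the insulin receptor, had no call, and its fitted genotype differences had opposite signs under the 2 treatments. The gene (FBgn0283499) lies on 3R from 21570248 to 21619321, minus strand. It had 114, 101 and 130.3 CPM in KO with DMSO, against 77.4, 91.0 and 84.5 CPM in w1118 with DMSO. With inhibitor it had 121, 141 and 98.2 CPM in KO heads, against 130.5, 718 and 92.5 CPM in w1118 heads. With DMSO every KO library lay above every w1118 library. With inhibitor the genotypes overlapped, and replicate 2 of w1118 was several times above all other libraries.

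InR differed by 0.45 on the log2 scale with DMSO (SE 0.61, edgeR adjusted p = 0.769) and by -1.39 with inhibitor (SE 0.62, adjusted p = 0.266). Averaged it was -0.47 (SE 0.43, 95% interval -1.43 to 0.49, edgeR adjusted p = 0.522). Once both w1118 replicates 2 were left out the differences were 0.60, 0.17 and 0.38, the last at an edgeR adjusted p of 0.0669, so the negative sign rests on the library at 718 CPM. With DMSO 4 of the 9 genes had no overlap between genotypes, with Ilp2, Ilp5 and ImpL2 below and InR above, against 24.1% of all genes tested (14% below and 10% above). With inhibitor it was 2 of 9, both below, against 27.7% of all genes (15.2% below and 12.5% above).

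chico, the insulin receptor substrate of the fly, showed a small difference. The gene (FBgn0024248) lies on 2L from 10242512 to 10247078, minus strand, and shares exon sequence with asRNA:CR44995, which had 0 counts in every library. It had 69.3, 67.4 and 59.1 CPM in KO with inhibitor and 64.9, 60.5 and 64.1 CPM in KO with DMSO. In w1118 it had 77.5, 83.2 and 66.8 CPM with inhibitor and 90.6, 63.7 and 75.8 CPM with DMSO. The w1118 libraries were higher on the whole but overlapped the KO range under both treatments. Averaged over treatments it differed by -0.25 in log2 units (SE 0.10, 95% interval -0.46 to -0.04, edgeR adjusted p = 0.130).

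foxo, the transcription factor that insulin holds out of the nucleus, showed no call. The gene (FBgn0038197) lies on 3R from 14056945 to 14087978, plus strand. It had 141, 140.5 and 123 CPM in KO with inhibitor and 153, 146 and 156 CPM in KO with DMSO. In w1118 it had 131, 129 and 133 CPM with inhibitor and 161, 81.0 and 117 CPM with DMSO. Apart from the 81.0 CPM in replicate 2 of w1118 with DMSO, all libraries lay between 117 and 161 CPM. In the average foxo differed by 0.19 in log2 units (SE 0.14, 95% interval -0.12 to 0.50, edgeR adjusted p = 0.406). The transcript level does not measure where the foxo protein was.

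Thor encodes the fly eIF4E-binding protein, a brake on translation and a classical foxo target. The gene (FBgn0261560) lies on 2L from 3478434 to 3479612, plus strand. It had 313, 191 and 132 CPM in KO with inhibitor and 241, 238 and 158 CPM in KO with DMSO. In w1118 it had 196, 274 and 127 CPM with inhibitor and 288, 155 and 294 CPM with DMSO. Within the inhibitor groups of both genotypes the highest head of Thor was more than 2-fold above the lowest, and the groups overlapped. The averaged log2 difference was -0.06 (SE 0.27, 95% interval -0.66 to 0.54, edgeR adjusted p = 0.916).

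**Figure D4:**
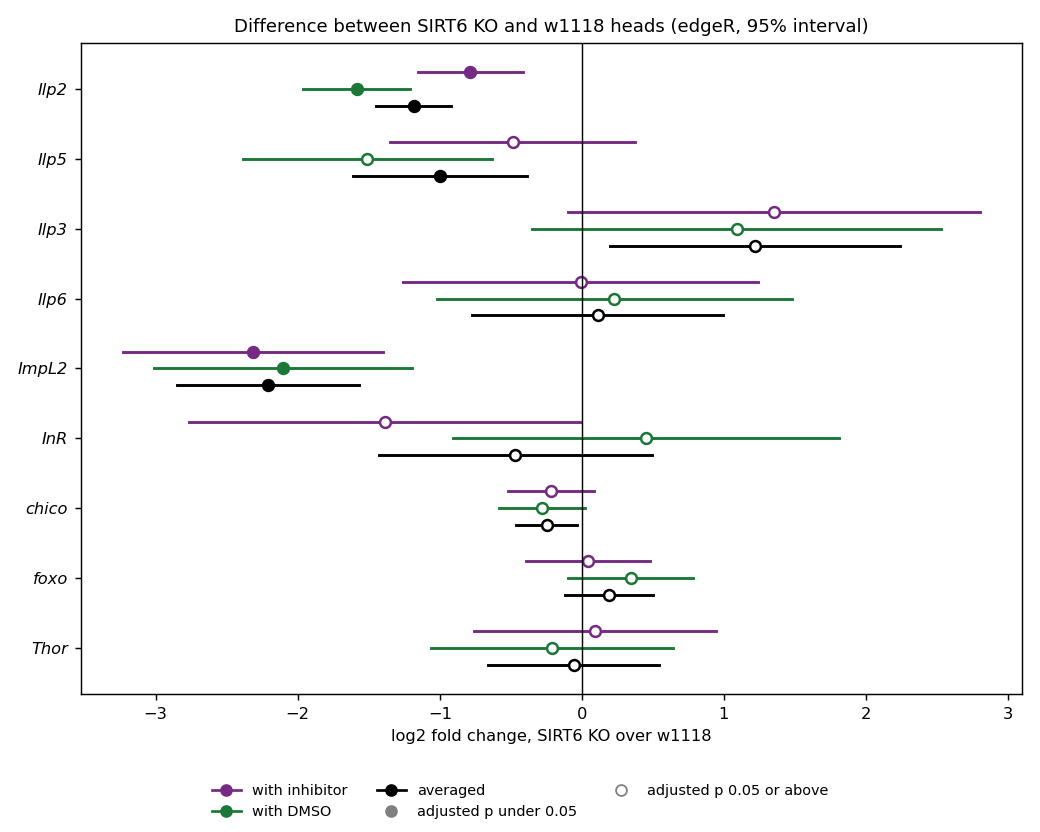
Log2 fold change of SIRT6 KO over w1118 for the 9 genes with DMSO, with inhibitor and averaged over treatments; bars are 95% intervals from edgeR's quasi-likelihood fit and filled symbols have an adjusted p under 0.05. Ilp2 and ImpL2 are filled throughout, Ilp5 in the average alone, and the intervals of Ilp6, InR, foxo and Thor cross 0 in the average.

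Per kilobase of exon the 9 genes were ordered by their median over the libraries of a genotype. In KO heads Thor stood first at 284 CPM per kb, before Ilp2 at 76.5, foxo at 34.7, Ilp5 at 30.6, Ilp6 at 21.6, chico at 18.0, ImpL2 at 12.1, InR at 10.4 and Ilp3 at 5.67 CPM per kb. In w1118 heads Thor stood at 311 CPM per kb, before Ilp2 at 174, Ilp5 at 65.2, ImpL2 at 58.9, foxo at 31.5, Ilp6 at 23.2, chico at 21.4, InR at 8.07 and Ilp3 at 1.89 CPM per kb. In KO heads the ranges of neighbours overlapped except between Thor and Ilp2, Ilp2 and foxo, and chico and ImpL2. In w1118 heads they overlapped except between Ilp2 and Ilp5 and between InR and Ilp3. ImpL2 was thus above foxo, Ilp6 and chico by its median in w1118 and below them in KO.

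The inhibitor was compared with DMSO within each genotype. In KO heads 0 of the 9 genes passed, and 0.00706% of all genes, 1 gene, did. In w1118 heads 0 of the 9 passed and 0% of all genes did, although 2 of the 9 and 1046 of the 14155 genes had an unadjusted p under 0.05 in edgeR and DESeq2 called 48 genes. Averaged over genotypes 0 of the 9 passed, against 0.00706% of all genes. The interaction, which asks whether the inhibitor effect differed between genotypes, gave 0 calls among the 9 and 0% of all genes, with 1 of the 9 and 685 genes at an unadjusted p under 0.05 in edgeR and 68 genes called by DESeq2.

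Ilp2 was the gene among the 9 with the smallest p-value in w1118. Its 3 libraries with inhibitor, at 76.9 to 107 CPM, lay below its 3 libraries with DMSO, at 126 to 179 CPM. The log2 difference was -0.61 (SE 0.17, unadjusted p = 0.00413, edgeR adjusted p = 0.555). In KO heads the difference was 0.19 (SE 0.17, edgeR adjusted p = 1), and the interaction was 0.80 (SE 0.24, 95% interval 0.28 to 1.32, unadjusted p = 0.00669, edgeR adjusted p = 0.972). None of these passed the adjusted threshold. On leaving out both w1118 replicates 2 the difference in w1118 was -0.29 and the interaction 0.47 (edgeR adjusted p = 0.585 and 0.938), so the size rests on those libraries.

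Ilp5 had the same signs as Ilp2 with larger errors, at -0.68 (SE 0.39) in w1118, 0.35 (SE 0.39) in KO and an interaction of 1.02 (SE 0.55), all without a call. InR in w1118 was 1.90 higher on the log2 scale with inhibitor (SE 0.63, unadjusted p = 0.0131, edgeR adjusted p = 0.565), and its 3 libraries at 92.5 to 718 CPM lay above the 3 with DMSO at 77.4 to 91.0 CPM. That difference was 0.48 without both w1118 replicates 2 (edgeR adjusted p = 0.653). In KO heads InR differed by 0.06 (SE 0.61), and the interaction was -1.84 (SE 0.87, edgeR adjusted p = 0.972). Ilp2 and InR were thus the 2 of 9 genes without overlap between treatments in w1118, against 7.91% of all genes (4.78% below and 3.13% above), and foxo was the 1 of 9 in KO heads, lower with inhibitor, against 13% of all genes (6.36% below and 6.66% above). Averaged over genotypes InR was at 0.98 with inhibitor over DMSO (SE 0.43, unadjusted p = 0.0482, edgeR adjusted p = 0.914), and at 0.24 without replicate 2 of w1118 with inhibitor. The other 34 differences of the 9 genes without a call lay between -0.30 and 0.39 on the log2 scale, with a smallest edgeR adjusted p of 0.307.

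**Figure D5:**
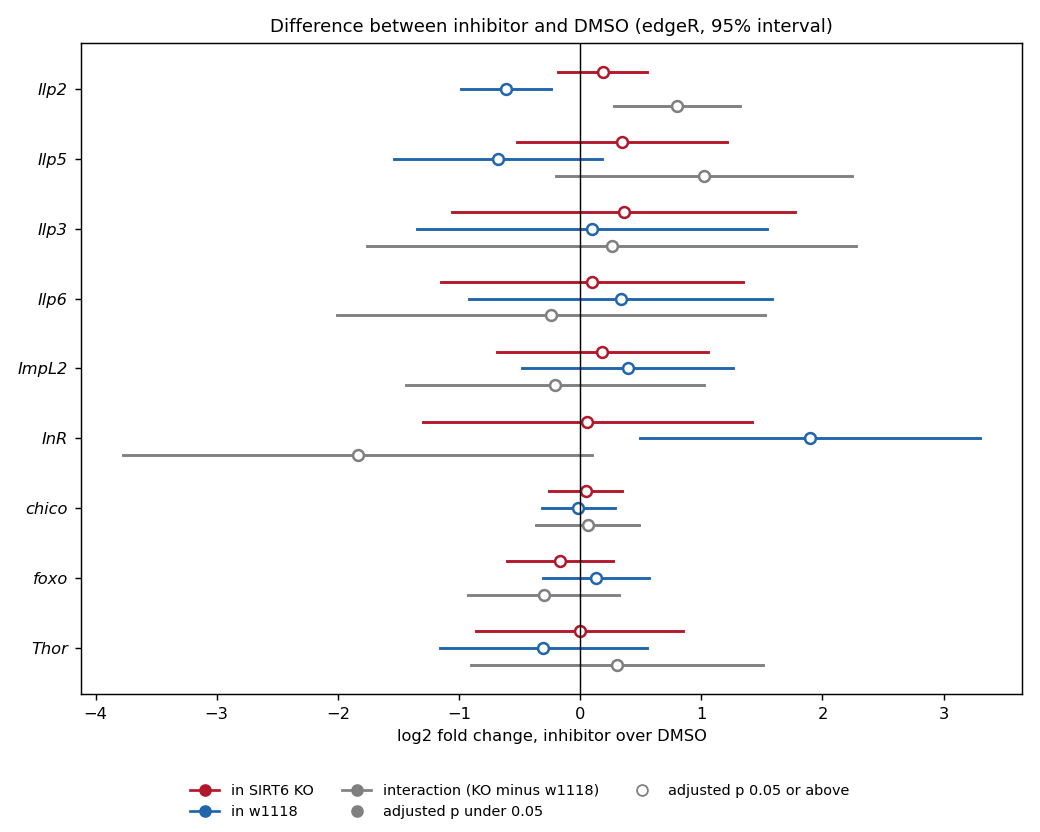
Log2 fold change of inhibitor over DMSO in SIRT6 KO and in w1118, and the interaction (the KO effect minus the w1118 effect), for the 9 genes, with 95% intervals from edgeR. All symbols are open, since no adjusted p was under 0.05, and the intervals that exclude 0 are those of Ilp2 in w1118, the Ilp2 interaction and InR in w1118.

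Further genes of the insulin pathway were counted as a list of 23 that runs from the low-abundance peptides and receptors through Akt to the TOR complexes. Averaged over treatments 1 of the 23 was higher in KO heads and 1 lower, and within DMSO and within inhibitor 0 passed, where 11.1%, 4.1% and 3.41% of all genes were called in the average, with DMSO and with inhibitor. Ilp8, a relaxin-like peptide that delays development after tissue damage, was higher (log2 1.25, SE 0.28, edgeR adjusted p = 0.0201) at 8 to 18 counts in KO libraries and 3 to 7 counts in w1118 libraries. Its exons overlap CG7730 and lncRNA:CR45756, so its few counts are uncertain. Dok, an adaptor of tyrosine kinases, was lower (log2 -0.31, SE 0.08, edgeR adjusted p = 0.0358) at 12.1 ± 0.991 CPM in KO heads and 15.0 ± 1.12 CPM in w1118 heads (SD, n = 6 each). Dok passed in 2 of 20 alternatives. The list's median log2 difference was -0.02, beside -0.07 over all genes tested, and Akt and the PI3-kinase subunits were among the 21 without a call.

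Genes reported to respond to foxo or insulin were counted as a list of 11, of which 3 were lower in KO heads in the average, 0 with DMSO and 1 with inhibitor, where 5.78%, 2.05% and 1.46% of all genes were called lower. The gene tobi, an alpha-glucosidase reported as a target of brain insulin in the fly, had 3.52, 3.83 and 2.77 CPM in KO with inhibitor and 5.38, 6.09 and 4.84 CPM in KO with DMSO. In w1118 it had 309, 9.05 and 397 CPM with inhibitor and 1341, 4.56 and 363 CPM with DMSO. The w1118 libraries with low fat body sums, which are mostly yolk protein transcripts, were thus near the KO level. The other 4 were far above it. Averaged, tobi differed by -6.43 in log2 units (SE 1.25, edgeR adjusted p = 0.00951), and by -6.92 without both w1118 replicates 2. The gene tobi passed in 19 of 20 alternatives and lost its call with the replicate block (log2 -5.56, edgeR adjusted p = 0.0686). Its exons overlap rha.

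The small heat shock gene l(2)efl averaged 8.34 ± 1.35 CPM in KO heads and 19.3 ± 7.17 CPM in w1118 heads (SD, n = 6 each). It was lower with inhibitor (log2 -1.66, SE 0.26, edgeR adjusted p = 0.00715) and in the average (log2 -1.17, SE 0.18, adjusted p = 0.00310), and its exons overlap St3. Pepck2, a phosphoenolpyruvate carboxykinase, had 1.77 to 3.37 CPM in KO heads, against 7.48 to 17.1 CPM in 4 w1118 libraries and 2.71 and 1.46 CPM in the 2 with low fat body sums. Its averaged log2 difference was -1.82 (SE 0.50, edgeR adjusted p = 0.0456), and it passed in 6 of 20 alternatives. The list's median log2 difference was -0.43, beside -0.07 over all genes, and Sesn, bmm, Lip4, puc, Myc, sima, daw and Pepck1 had no call. The list mixes reported responders to foxo with responders to insulin, so its median does not measure the activity of either.

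Signals to and from the insulin-producing cells were counted as a list of 22, of which Akh was too low to test. Of the 21 tested, 3 were lower in KO heads in the average, 2 with DMSO and 0 with inhibitor, where 5.78%, 2.05% and 1.46% of all genes were called lower. In each of these comparisons 0 of the 21 were higher, against 5.33%, 2.06% and 1.95% of all genes. The TNF ligand egr, which is released from larval fat body and restrains the insulin-producing cells, had 10.3 to 12.8 CPM in KO heads and 16.2 to 31.3 CPM in w1118 heads (averaged log2 -0.80, SE 0.14, edgeR adjusted p = 0.00483). The neuropeptide sNPF, which stimulates insulin-like peptide expression, had 56.4 to 61.2 CPM in KO heads and 70.2 to 125 CPM in w1118 heads (averaged log2 -0.51, SE 0.13, edgeR adjusted p = 0.0323). SIFa, a peptide of neurons beside the insulin-producing cells, had 2.46 to 3.48 CPM in KO heads and 2.78 to 6.996 CPM in w1118 heads (averaged log2 -0.80, SE 0.17, edgeR adjusted p = 0.0165), and its exons overlap Start1. With DMSO the calls were egr (log2 -0.91, SE 0.19, adjusted p = 0.0293) and SIFa (log2 -1.02, SE 0.25, adjusted p = 0.0497, edgeR). Of the averaged calls, egr held in all 20 alternatives, SIFa in 15 and sNPF in 10, and with DMSO egr held in 11 of 21 and SIFa in 7. Replicate 2 of w1118 with DMSO had the highest egr and sNPF, and without it egr with DMSO was at -0.51 and averaged sNPF at -0.28, both still called. The list's median was -0.23, beside -0.07 over all genes. In the inhibitor comparisons and the interaction 0 genes of the 3 lists passed.

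For each of the 9 genes, the genes of at least 1 CPM most like it over the 12 libraries were found by the Pearson correlation of log2 CPM, as a description in which the libraries that stand apart weigh heavily. For Ilp2 they were lncRNA:CR45973 (0.98), CkIIalpha-i3 (0.97) and CG5535 (0.97). For Ilp5 they were Loxl2 (0.97), Nplp3 (0.96) and CG14818 (0.95), and for Ilp3 Ada3 (0.95), Tnks (0.93) and Tsen34 (0.91). For Ilp6 they were pst, Odc1 and CG3246 (0.97 each), and for ImpL2 CG13794 (0.97), lncRNA:CR43411 (0.97) and Cyp12c1 (0.96). For InR they were Tsp42En, Cyp313b1 and RhoU (0.98 each). For chico they were mrt (0.95), Tsp42Ed (0.93) and bwa (0.93), for foxo CG12643 (0.96), CG12091 (0.94) and AOX3 (0.94), and for Thor rad50 (0.88), CG7139 (0.88) and I-2 (0.83). No gene of the 9 was among the nearest of another.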

How the data were processed

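The authors deposited 1 table of estimated counts per feature, with 12 library columns and 24278 rows, of which 17895 are FlyBase genes. The submitters' processing notes name Trim Galore 0.6.7, STAR 2.7.9a, Salmon 1.10.1 and the build BDGP6; their order, settings and use of strand are not given in the sources used here, so reads of overlapping genes cannot be told apart. Per the labels' protocols, ribosomal RNA was depleted and ERCC RNA added; the table used here holds 0 ERCC rows. Symbols matched 17855 genes, and positions and exon lengths come from Ensembl 115 on BDGP6.54.

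The expected counts were rounded. Genes that passed filterByExpr (minimum count 10) numbered 14155. A group-means model with TMM scaling was fitted to the 12 libraries (8 residual degrees of freedom) with edgeR 4.0.16 in R 4.3.3, tested by quasi-likelihood and adjusted by Benjamini-Hochberg over all 14155 genes at 0.05. SEs and intervals derive from the test statistic. CPM uses TMM-scaled libraries, and log2 CPM a prior count of 2. A level of 3 counts is 0.0554 to 0.108 CPM and covers counting error only. The code was tested on simulated counts. All 9 genes were named in every comparison, genes of the lists where called, and the 3 genes most like each. Members and lists were chosen with earlier results of these data known. Alternatives were DESeq2 1.42.0, voom in limma 3.58.1, other scalings and filters, a replicate block, 2-group fits and libraries left out; leaving out both w1118 replicates 2 for the lists was chosen after seeing the data.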

Additional observations from a re-analysis of the deposited data

Results flagged for a closer look

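The level of InR in replicate 2 of w1118 with inhibitor, 718 CPM, lay far above the other 5 w1118 libraries, which had 77.4 to 130.5 CPM. Its gap to the nearest was 0.917 of the range of the 6 libraries, where Dixon's 95% limit is 0.625. The 9 genes gave 18 such groups of 6 libraries, 1 a genotype, and chance flags about 1 in 20 groups. The same library had 1.87% of its counts in yolk protein genes, and the part of this difference in the InR value was not tested.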

How the results depend on the processing

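The calls of Ilp2 with DMSO and averaged, and of ImpL2 averaged, held in every alternative run. The number of the 9 genes called with DMSO, 2 as reported, was 4 by voom and 1 with the replicate block. With inhibitor, 2 as reported, it was 1 with the replicate block, 1 in a fit of only the groups compared and 4 without both w1118 replicates 2. Averaged, 3 as reported, it was 5 by voom. Leaving out 1 library at a time gave 1 to 3 with DMSO, 0 to 2 with inhibitor and 2 to 4 averaged. Inhibitor comparisons and the interaction gave 0 throughout. The pairs past the threshold, 1 as reported, numbered 0 by Spearman's rho, 0 on deviations, 4 without both w1118 replicates 2 and 0 to 2 leaving out 1 library.

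Among the member differences printed one by one, the signs that turned were those of averaged Ilp6 (-0.12 by voom, -0.0262 without both w1118 replicates 2, and -0.0585 to 0.46 leaving out 1 library), averaged InR (0.15 by voom, 0.38 without both, and -0.64 to 0.35), averaged Thor (0.0454 without both, and -0.21 to 0.17), InR with inhibitor (0.17 without both, and -1.78 to 0.17) and the inhibitor effect on InR in KO (-0.0173 with the replicate block, and -0.0695 to 0.18). None of these passed the test in any alternative, and of 700 values of the other 34 differences 83 turned sign and 1 passed (chico with DMSO by voom, lower in KO); the cause was not tested.

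Over all genes the deviations of same-numbered libraries were weakly correlated (r -0.15 to 0.17), which does not show whether they share an effect on some genes. Both w1118 replicates 2 had few counts in yolk protein genes, 0.417% with DMSO and 1.87% with inhibitor. With the replicate block the edgeR adjusted p was 0.0665 for Ilp2 with inhibitor, 0.0534 for ImpL2 with DMSO and 0.0895 for averaged Ilp5. Averaged Ilp3 passed with the block as higher in KO heads (edgeR adjusted p = 0.0323). Genes called in all were 581, 482 and 1572 with DMSO, with inhibitor and averaged. DESeq2 gave 1202 and 1081 in the first pair, voom 2406, 1335 and 3975, the 2-group fit 343 with DMSO, and the fit without both w1118 replicates 2 gave 2614, 1824 and 4161. Leaving out 1 library gave 227 to 1629, 250 to 1351 and 936 to 3246. For the inhibitor in KO (1 gene) DESeq2 gave 67, for w1118 (0) 48 and averaged (1) 44. With 3 heads a group, Ilp3, InR and Ilp6 carry the widest intervals in the averaged genotype comparison.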

Other observations

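More genes of the lists passed the averaged genotype test when both w1118 replicates 2 were left out, a choice made after seeing the data, and 29.1% of 14303 genes were then called. Of the 22 signals to and from the insulin-producing cells, 7 were then lower in KO heads (AkhR, egr, Gbp1, Gbp2, Lst, SIFa and sNPF). Another 3 were higher (GABA-B-R1, Octbeta1R and sNPF-R). The growth-blocking peptides Gbp1 (log2 -0.75, SE 0.09, edgeR adjusted p = 0.000760) and Gbp2 (-0.55, SE 0.07, adjusted p = 0.000972), which in larvae carry a fat body signal to these cells, were among the lower ones. So were AkhR, the receptor of adipokinetic hormone (-0.57, SE 0.13, adjusted p = 0.0132), and Lst, a hormone that restrains insulin release (-0.87, SE 0.20, adjusted p = 0.0114), both by edgeR. With all libraries these 4 had averaged log2 differences of -0.57, -0.24, -0.23 and -0.82 with no call.

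Of the 23 genes of the insulin pathway list, 4 were then higher (gig, Ilp8, Lgr4 and rictor) and 2 lower (Rheb and Sdr), where 29.1% of all genes were called. The list was thus called no more often than all genes. Rheb, the GTPase that switches on TOR, was lower (-0.60, SE 0.09, edgeR adjusted p = 0.00144), and gig, a subunit of the complex that inhibits Rheb, was higher (0.20, SE 0.05, edgeR adjusted p = 0.0111). Tsc1, Tor, raptor and S6k of the same list had no call, at 0.07, 0.27, 0.12 and -0.24. The secreted decoy receptor Sdr, which binds insulin-like peptides as ImpL2 does, was lower (-0.29, SE 0.08, edgeR adjusted p = 0.0297). With all libraries Rheb, gig and Sdr had -0.53, 0.10 and -0.50, with no call. Of the 11 foxo and insulin targets, 5 were then lower (daw, l(2)efl, Pepck1, Pepck2 and tobi) and 2 higher (Myc and puc). The haemocyte markers summed to 104 to 258 CPM in KO libraries and 227 to 338 CPM in 5 w1118 libraries, and to 1055 CPM in replicate 2 of w1118 with DMSO.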
